A study of Mus musculus with 6 samples.

Results

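The angiopoietin and VEGF ligands and their receptors were examined in the heart ventricle of newborn mice with and without Rbpms, an RNA-binding protein. The family was taken by gene name and comprised 10 of the 14004 genes in the expression table, namely the ligands Angpt1, Angpt2, Vegfa, Vegfb and Vegfc and the receptors Tek, Tie1, Kdr, Flt1 and Flt4. All 10 passed the filter on low values. The same names drew 49 of 39201 alternative splicing events from the deposited splicing tables, and all 49 passed the filter on reads. The names were proposed with earlier results of these data known, among them the rise of Angpt1. The rule of choice also named the Vegfa isoform exon. Neither the rise of Angpt1 nor the change of that exon is therefore independent support for the choice. Polyadenylated RNA was sequenced with strand information from 3 wild-type (WT) libraries and 3 Rbpms knockout (KO) libraries, all from C57BL6 mice at postnatal day 1. The labels number the libraries of a group as biological replicates and do not say how many animals each holds, and p-values therefore reflect only how far these libraries differed. Which part of Rbpms was deleted, and in which cells, is not given in the sources used here.

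Both ligand families act on the endothelial cells that line vessels and the endocardium. Angpt1, which in the embryonic mouse heart is made by the muscle wall, activates the receptor tyrosine kinase Tek (also called Tie2) and stabilises vessels, whereas Angpt2 can block or activate the same receptor depending on the setting. Tie1 has no known ligand of its own among the angiopoietins and acts through Tek. Vegfa binds Kdr, the main signalling receptor for vessel growth, and Flt1, which holds ligand away from Kdr. Vegfb binds Flt1, and Vegfc acts on Flt4 and Kdr in lymphatic and some blood vessels.

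The targeted gene matched the labels, since Rbpms stood at 33.1, 35.7 and 38.1 RPKM in WT and at 0.594, 0.276 and 0.240 RPKM in KO. RPKM scales reads by gene length and library size, and the number of reads behind it is unknown. The ventricle label was matched by heart muscle markers, since Tnnt2 averaged 1035 and 981 RPKM and Myl2 averaged 3017 and 2729 RPKM in WT and KO. Airway and lung markers were present too, and unequally. They summed to 522 to 718 RPKM in WT and 1.52 to 18.6 RPKM in KO, mostly from Scgb3a2 (means 545 and 5.19 RPKM). The nearest pair of libraries was WT replicates 1 and 2, whose log2 ratios over 3677 genes had an SD of 0.132, while other pairs had SDs of 0.244 to 0.496.

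Of the 10 genes, 2 were called higher in KO and 0 lower, Angpt1 and Tie1. A gene was called at an adjusted p below 0.05 from limma on log2(RPKM + 0.5), adjusted over all genes tested. Among the 12911 genes tested, 6.37% were called, 2.38% higher and 3.99% lower (307 and 515 genes, or 416 and 427 after rescaling each library by its median ratio). By an unadjusted limma p below 0.05, 4 of the 10 differed, the other 2 being Vegfb and Flt1, against 23.5% of all genes. In the authors' deposited table Angpt1, Tie1 and Flt1, or 3 of the 10, were higher in KO at a false discovery rate (FDR) below 0.05, against 5.45% of 14004 genes. Without single libraries the limma count was 1 or 2, and Angpt1 was always among the genes called.

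**Figure D1:**
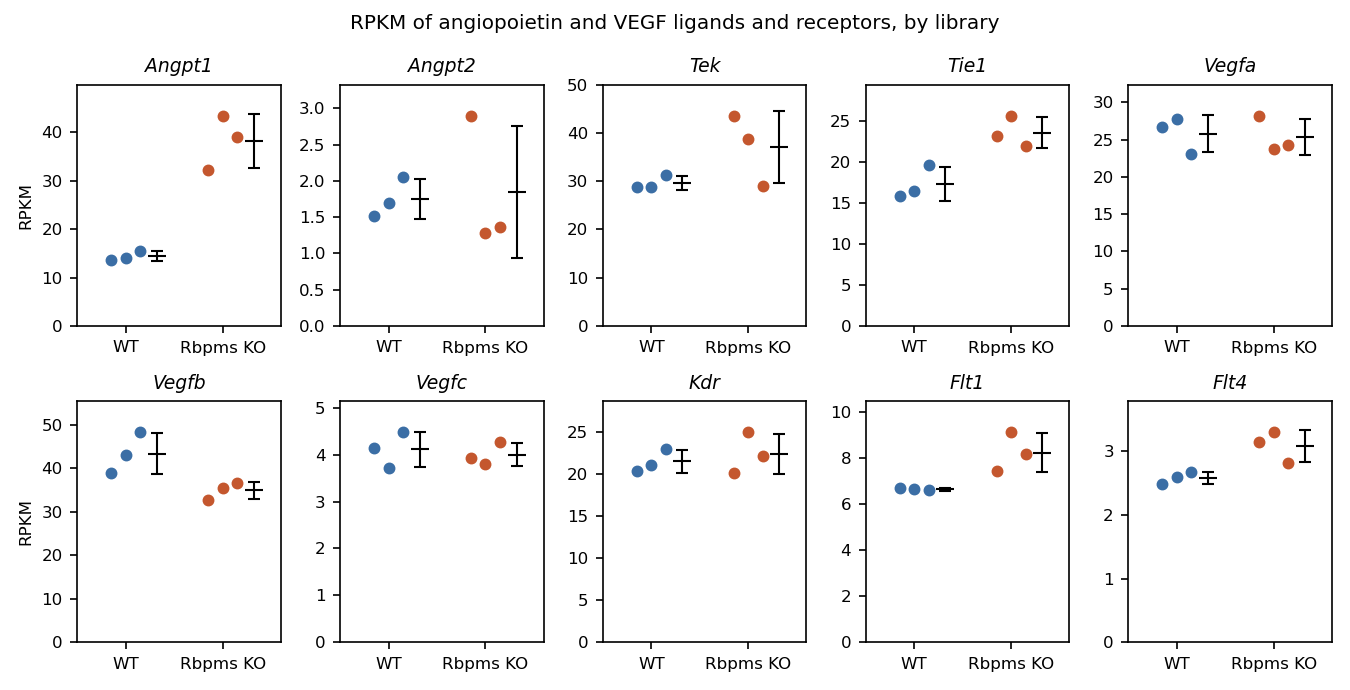
RPKM (y axis, from 0) of each ligand and receptor in the 3 WT libraries (blue) and the 3 Rbpms KO libraries (orange), with the mean and SD of each group in black. The Angpt1 points are 13.5 to 15.5 RPKM in WT and 32.2 to 43.4 RPKM in KO, whereas Vegfa, Vegfc and Kdr overlap between groups.

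Angpt1 (ENSMUSG00000022309, GRCm38 chromosome 15, 42424723 to 42676977, minus strand) had the largest change of the family. Its level was 13.5, 14.1 and 15.5 RPKM in WT and 32.2, 43.4 and 39.0 RPKM in KO. The lowest KO library stood above the highest WT library by more than the whole spread of either group. The means were 14.4 ± 1.02 RPKM and 38.2 ± 5.65 RPKM (SD, n = 3 each), a 2.58-fold rise and a log2 change of 1.37 (SE 0.115, limma adjusted p = 6.70e-04). By absolute change it ranked 100 of the genes tested. Angpt1 stayed called in all 14 alternatives of processing and of libraries left out, with log2 changes from 1.27 to 1.49.

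Angpt2 (ENSMUSG00000031465, chromosome 8, 18690263 to 18741562, minus strand), the context-dependent ligand of Tek, was the lowest of the 10 genes. It measured 1.51, 1.69 and 2.06 RPKM in WT and 2.90, 1.28 and 1.36 RPKM in KO. KO replicate 1 held the highest value and the other KO libraries the lowest values of all 6, so the KO spread took in the WT range. The log2 change was -0.0016 (SE 0.242, limma adjusted p = 0.997), and its 95% interval ran from -0.56 to 0.56. The ratio of Angpt1 to Angpt2 in RPKM, which does not depend on library scaling, was 8.97, 8.32 and 7.54 in WT and 11.1, 33.9 and 28.6 in KO. Every KO library had the higher ratio, and KO replicate 1 was nearest to WT.

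The genes with the pattern most like that of Angpt1 over the 6 libraries were Hmcn1, Sytl2, Rnf141, Myom1 and Clu, with Pearson correlations of log2 values from 0.992 to 0.997. These correlations describe libraries that fall into a WT and a KO group and carry no test. Hmcn1, a matrix protein, averaged 7.51 and 12.0 RPKM, and Clu, a secreted chaperone, 24.1 and 63.3 RPKM in WT and KO. Myom1, a protein of the sarcomere's M-band, followed the same order with a far smaller difference, 262 and 293 RPKM.

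Both Tie receptors had higher mean levels in KO, and only Tie1 was called. Tie1 (ENSMUSG00000033191, chromosome 4, 118471191 to 118490061, minus strand), the co-receptor of Tek, measured 15.9, 16.4 and 19.6 RPKM in WT and 23.2, 25.6 and 21.9 RPKM in KO, with no overlap between groups. It rose from 17.3 ± 2.04 to 23.6 ± 1.89 RPKM (SD, n = 3 each), a log2 change of 0.44 (SE 0.102, limma adjusted p = 0.0453). This call rested on single libraries. It held without WT replicate 3 (adjusted p = 0.0219) and was lost without WT replicate 1 or 2 (0.166 and 0.198) and without KO replicate 1, 2 or 3 (0.0662, 0.137 and 0.0657), although the log2 change stayed between 0.38 and 0.53 in these fits.

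Tek (ENSMUSG00000006386, chromosome 4, 94739289 to 94874976, plus strand), the receptor of both angiopoietins, measured 28.8, 28.7 and 31.3 RPKM in WT and 43.5, 38.8 and 28.9 RPKM in KO. KO replicates 1 and 2 stood above all WT libraries, and KO replicate 3 lay within the WT range. The log2 change was 0.30 (SE 0.139, limma adjusted p = 0.240), and Tek was called without KO replicate 3 (adjusted p = 0.0398). The ratio of Angpt1 to Tek in RPKM was 0.470 to 0.496 in WT and 0.740, 1.12 and 1.35 in KO, so the groups did not overlap, and in KO replicates 2 and 3 the ligand's level per length exceeded that of its receptor.

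**Figure D2:**
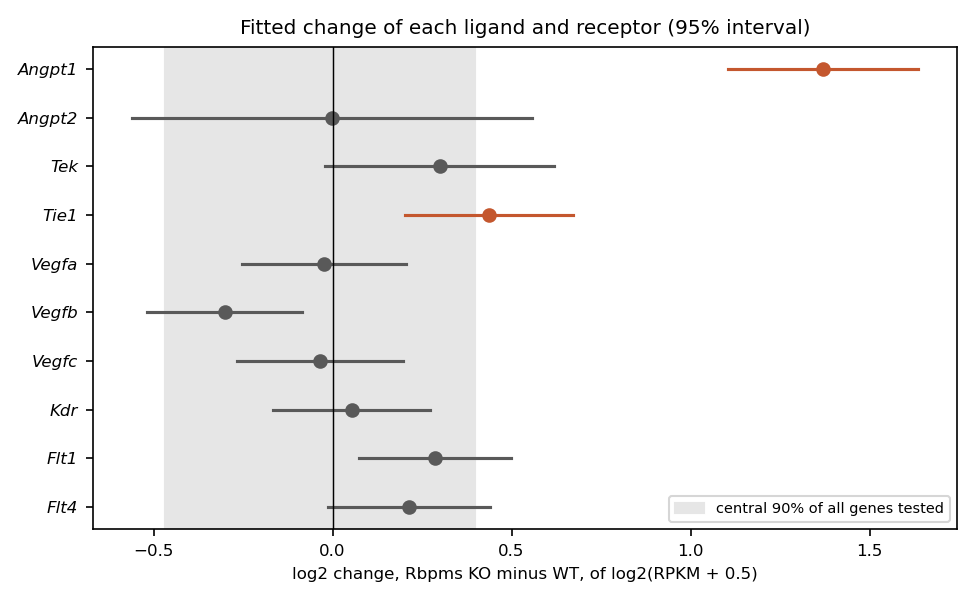
Fitted log2 change of log2(RPKM + 0.5), Rbpms KO minus WT (x axis), for each ligand and receptor, with its 95% interval from limma; orange marks an adjusted p below 0.05. The grey band holds the central 90% of all genes tested, -0.47 to 0.40. Angpt1, at 1.37, lies far outside it.

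Total levels of the VEGF ligands were not called different between the genotypes. Vegfa (ENSMUSG00000023951, chromosome 17, 46016993 to 46032369, minus strand), the principal ligand of Kdr, measured 26.7, 27.7 and 23.0 RPKM in WT and 28.2, 23.8 and 24.2 RPKM in KO. The groups overlapped, and the log2 change was -0.023 (95% interval -0.25 to 0.21, limma adjusted p = 0.917). Vegfc (ENSMUSG00000031520, chromosome 8, 54077606 to 54187096, plus strand), the ligand of Flt4, measured 4.15, 3.72 and 4.47 RPKM in WT and 3.93, 3.79 and 4.26 RPKM in KO, so the KO values lay within the WT range. Its log2 change was -0.035 (95% interval -0.27 to 0.20, limma adjusted p = 0.869).

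Vegfb (ENSMUSG00000024962, chromosome 19, 6982473 to 6987651, minus strand), a ligand of Flt1 that is abundant in heart muscle, measured 38.8, 42.9 and 48.2 RPKM in WT and 32.7, 35.4 and 36.6 RPKM in KO. All KO libraries were below all WT libraries, by a narrow margin between the nearest. The log2 change was -0.30 (SE 0.0935, limma adjusted p = 0.101), and it was not called in any of the 14 alternatives.

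The splicing tables gave the use of single Vegfa exons, and the shares of whole Vegfa forms were not estimated. Vegfa forms share the receptor-binding part and differ in exons 6 and 7, which encode basic stretches that bind heparan sulphate and hold the protein at the cell surface and matrix. The mouse form with both exons is known as VEGF188, that with exon 7 but not exon 6 as VEGF164, and that with neither as VEGF120, which diffuses most freely. Of 8 protein-coding Vegfa transcripts in GENCODE M21, 3 hold the exon 6 of 72 bases, and 1 holds a version of 54 bases that ends 18 bases earlier, as human VEGF183 does. Both lengths keep the reading frame (24 and 18 codons). The exon at issue, exon 6, and its neighbour, exon 7, lie at GRCm38 chr17:46022277-46022348 and chr17:46020991-46021122 on the minus strand, within the coding sequence. Both are shown because the result concerns whether exon 6 was spliced in, with exon 7 set beside it. They were read from the GENCODE M21 transcripts, and the capitals mark the bases of exon 6 that the shorter version lacks.
Vegfa exon 6: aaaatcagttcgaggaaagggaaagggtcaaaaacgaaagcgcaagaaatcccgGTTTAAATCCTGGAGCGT
Vegfa exon 7: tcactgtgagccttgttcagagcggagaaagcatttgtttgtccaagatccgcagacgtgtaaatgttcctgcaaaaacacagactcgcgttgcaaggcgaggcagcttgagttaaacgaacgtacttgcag
RBPMS proteins are known to bind the trinucleotide CAC when it is repeated in RNA. It occurred 0 times in exon 6 on the sense strand and 0 times on the other. Of 2048 annotated exons of 72 bases, 62.1% held at least 1 CAC on the sense strand, a share that does not count repeats. Exon 7 and the Vegfb extension printed below also hold CAC on the sense strand. Binding of Rbpms to these RNAs was not tested. Flanking introns were not analysed here.

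**Figure D3:**
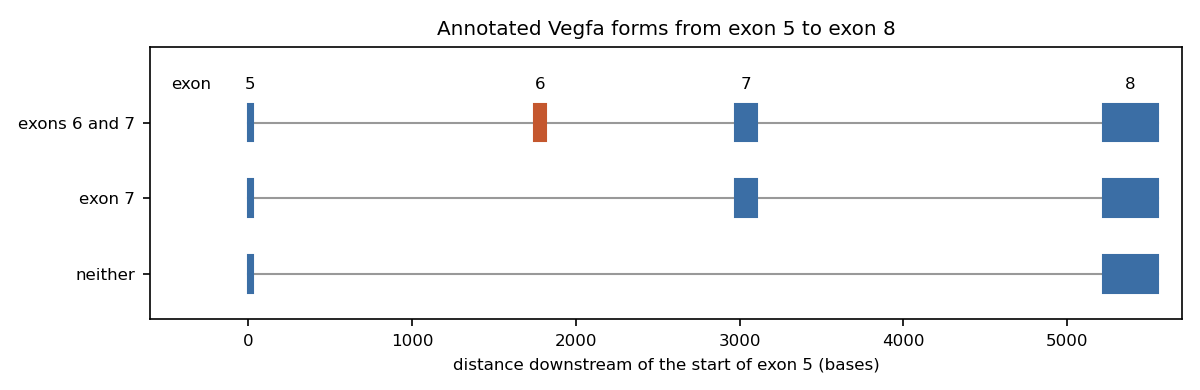
Annotated Vegfa forms with exons 6 and 7, with exon 7 alone or with neither, from exon 5 to exon 8. They are drawn to scale as distance in bases downstream of the start of exon 5 (x axis). Boxes are exons, lines introns, and exon 6 is orange. The annotated form with exon 6 but not exon 7, and that with the 54-base exon 6, are not drawn. Exon 6 lies 1746 bases downstream of the start of exon 5, and exon 8 is drawn as far as the GENCODE transcript with both exons reaches.

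The deposited splicing tables hold 3 values for each of 2 sets of libraries, and their headers name neither the genotype of a set nor the order of libraries within it. Which set to read as lacking Rbpms was chosen by the measured reads at Rbpms exons, given here as a description and not as a result. Summed over the 15 skipped exon events of Rbpms, which share reads, the authors' deposited table gave 3420, 3838 and 3985 junction reads in the first set and 40, 22 and 14 in the second. The second set is therefore the one with Rbpms nearly absent.

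Inclusion of Vegfa exon 6 was far lower in the second set, while the sets overlapped in their use of exon 7. In the authors' deposited table, inclusion of the 72-base exon between exons 5 and 7 was 32.3%, 28.7% and 38.0% in the first set and 7.8%, 5.4% and 8.5% in the second set. The sets did not overlap, and each value of the first set was more than 3 times the highest of the second. The means were 33.0% and 7.23%, a difference of -25.8 percentage points (exact two-sided permutation p = 0.1, and 3 against 3 libraries cannot go lower), with an FDR listed as 0 in the authors' deposited table. These levels rested on 153, 170 and 110 junction reads in the first set and 106, 90 and 84 in the second. The highest 95% Wilson bound of the second set was 14.3% and the lowest of the first set 23.0%, intervals that cover counting error only. Airway and lung markers also differed between the genotypes, as given, and the part of such cells in exon 6 use was not tested.

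The authors' deposited table lists exon 6 in 3 more events, which reuse inclusion reads of the same exon against other alternatives and add no independent evidence. Against transcripts joined from exon 5 to exon 8, the levels were 32.2%, 50.5% and 25.4% in the first set and 14.5%, 7.4% and 7.5% in the second in the authors' deposited table, on 29 to 54 reads per library (FDR 5.69e-04). The inclusion reads of that event numbered 26, 26 and 20 in the first set and 8, 5 and 4 in the second, and the event listed in the authors' deposited table as mutually exclusive exons 6 and 7 held the same numbers, giving 14.2%, 12.4% and 15.2% against 4.7%, 3.5% and 2.8% (FDR 2.40e-06). These are not levels of exon 6 replacing exon 7, because the junction from exon 6 to exon 8 that such a form needs had 0, 1 and 0 reads in the first set and 0, 0 and 0 in the second.

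The event listed for the 54-base version gave 11.7%, 7.4% and 12.3% against 4.3%, 2.1% and 1.6% in the authors' deposited table (FDR 0.00117). Both versions start at the same base, so reads from exon 5 can belong to either, and a change of the shorter version was not shown by itself. Each of these events gave an exact permutation p of 0.1. Leaving out 1 library at a time moved the difference of the event between exons 5 and 7 between -27.9 and -23.3 percentage points.

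Exon 7 showed no such separation. Its inclusion between exons 5 and 8 in the authors' deposited table was 74.2%, 87.8% and 65.5% in the first set and 77.5%, 68.9% and 74.1% in the second, with overlapping sets, a difference of -2.33 percentage points and an FDR of 1. That small difference rested on single libraries and ran from -7.5 percentage points without the third value of the first set to 3.65 without the second value of the same set, and it was -3.15, -4.33 and -0.033 without the first value of the first set and the first and the second value of the second set. Between exons 6 and 8 the authors' deposited table listed exon 7 at 98.6% to 100% in the first set and 100% in the second, levels that count exon 7 to 8 reads of any transcript. The total Vegfa level in RPKM had, as given, a log2 change of -0.023.

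**Figure D4:**
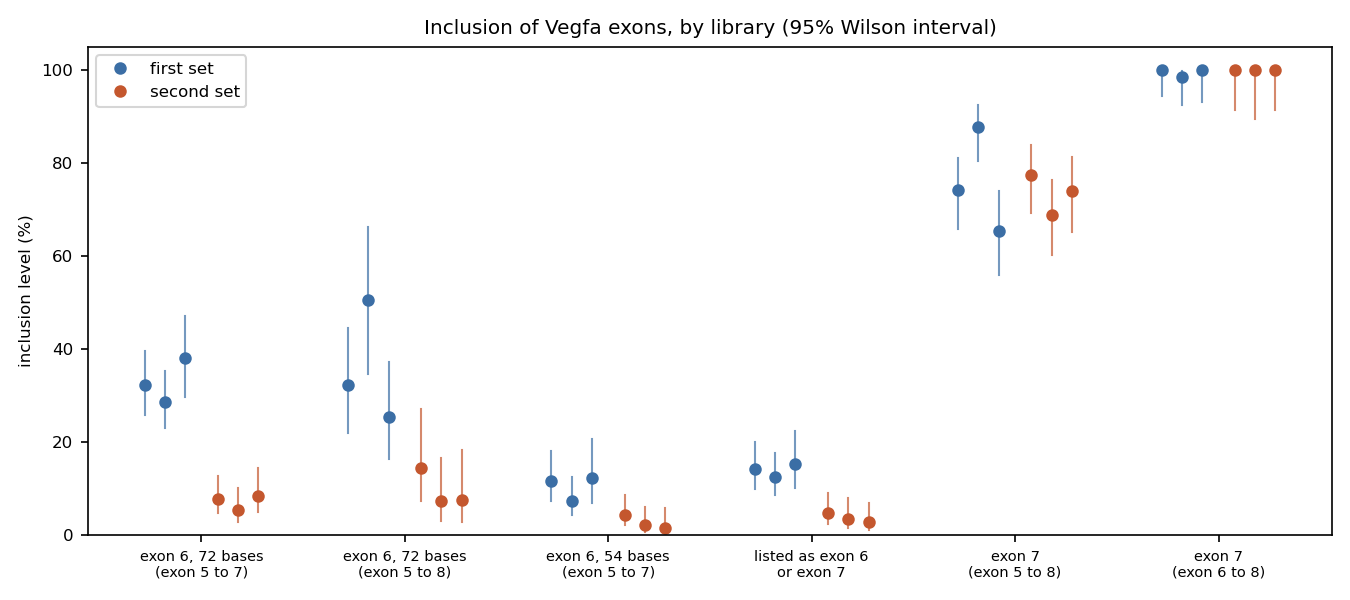
Inclusion level in percent (y axis) of Vegfa exons in each library of the first set (blue) and of the second set, in which Rbpms reads were nearly absent (orange), with 95% Wilson intervals. The 4 events with exon 6, which share inclusion reads, sit lower in the second set with no overlap of points, and both exon 7 events overlap.

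Read against all events, 3 of the 49 events of these genes had an FDR below 0.05 and a difference of at least 0.1 in the authors' deposited table, all of them for exon 6 of Vegfa and sharing reads, and the event listed for the 54-base version passed by FDR alone. Of all events with enough reads 0.921% passed both limits. By type these were 0.961% of skipped exons, 1.14% of mutually exclusive exons, 0.468% of alternative acceptor sites, 0.952% of alternative donor sites and 0.45% of retained introns. By absolute difference the exon 6 event between exons 5 and 7 ranked 107 of 21962 skipped exon events.

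None of the other 43 events passed these limits. Their absolute differences between sets had a median of 0.8 percentage points and a maximum of 7.7, and the lowest FDR in the authors' deposited table was 0.819. That lowest value belonged to Vegfb, where a 101-base extension of exon 6 separates the diffusible form VEGF-B186, which contains it, from the heparin-binding VEGF-B167. The extension (chr19:6985496-6985596, minus strand) is not a multiple of 3 and shifts the frame, and it is shown as the other ligand segment that chooses between bound and diffusible protein.
Vegfb exon 6 extension: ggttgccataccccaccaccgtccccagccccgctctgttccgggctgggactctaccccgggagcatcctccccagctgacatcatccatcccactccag
Its use was 30.5%, 34.4% and 34.4% in the first set and 34.1%, 40.3% and 41.3% in the second in the authors' deposited table, with overlapping sets (exact permutation p = 0.3, FDR 0.819). For Tek, the authors' deposited table held a choice of donor site that adds 3 bases at chr4:94851875-94851877, used at 55.8% to 63.1% in the first set and 52.5% to 56.6% in the second (FDR 1). The largest difference, in an exon of Flt4, rested on 8 to 14 reads per library, and its sets overlapped. Angpt2 had no event in the tables, so no form of it was compared.

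The 5 receptors all had positive log2 changes in KO, from 0.05 for Kdr to 0.44 for Tie1, and Tie1 alone was called. Over all genes tested, 44.0% had a positive change. The sign for Kdr was not stable, since its log2 change was -0.025 without KO replicate 2. Kdr (ENSMUSG00000062960, chromosome 5, 75932827 to 75978458, minus strand) measured 20.3, 21.1 and 23.0 RPKM in WT and 20.1, 24.9 and 22.1 RPKM in KO. The KO libraries spanned the whole WT range, and the log2 change was 0.054 (95% interval -0.17 to 0.27, limma adjusted p = 0.779).

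Flt1 (ENSMUSG00000029648, chromosome 5, 147561604 to 147726011, minus strand), the receptor of Vegfa and Vegfb, measured 6.70, 6.63 and 6.59 RPKM in WT and 7.44, 9.10 and 8.15 RPKM in KO. All KO libraries were above the WT libraries, which were nearly alike. The log2 change was 0.29 (SE 0.0919, limma adjusted p = 0.110), while the authors' deposited table gave an FDR of 0.0299. The count per gene does not separate the soluble form of Flt1, a known trap for ligand, from the membrane form.

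Flt4 (ENSMUSG00000020357, chromosome 11, 49609263 to 49652739, plus strand), the receptor of Vegfc, measured 2.48, 2.59 and 2.67 RPKM in WT and 3.13, 3.29 and 2.81 RPKM in KO. The groups did not overlap, and the log2 change was 0.21 (SE 0.0981, limma adjusted p = 0.236). Groups that do not overlap were found for 5 of the 10 genes, 4 of them higher in KO and Vegfb lower, against 29.8% of all genes tested.

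Ordered by level per length, the WT libraries ran from Vegfb (43.3 RPKM) through Tek, Vegfa, Kdr, Tie1, Angpt1, Flt1, Vegfc and Flt4 to Angpt2 (1.75 RPKM), and no neighbours in that order overlapped. In the KO libraries Angpt1 moved from the sixth place to the first at 38.2 RPKM, but it overlapped Tek, and Tek overlapped Vegfb. Vegfa, Tie1 and Kdr also ran into each other there, as did Flt4 and Angpt2. Flt1 and Vegfc kept the seventh and the eighth place.

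Some endothelial markers rose as well. In bulk tissue, more cells of a type and more RNA per cell cannot be told apart. Of 10 tested endothelial markers 3 were called higher, Emcn, Erg and Pecam1, and 0 lower, with a median log2 change of 0.33 against -0.031 over all genes. Pecam1, an adhesion protein of endothelial junctions, averaged 41.4 and 59.6 RPKM in WT and KO. Their summed level was 189 to 231 RPKM in WT and 256 to 284 RPKM in KO. Endocardial markers had 3 of 5 called higher, Npr3, Adgrg6 and Cgnl1, with summed levels of 43.9 to 51.1 RPKM in WT and 62.4 to 78.8 RPKM in KO. Lymphatic markers had 0 of 6 called and a median of 0.07, and arterial markers 0 of 5 called and a median of 0.40. Of 3 venous markers 1 was called, Aplnr, which was lower (log2 change -0.46). The others, Nr2f2 and Ephb4, had positive log2 changes of 0.17 and 0.26, and the venous median was 0.17.

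Levels were also set against the mean log2 level of the endothelial markers in the same library, a description with no test. Because that mean rose by 0.33, the median gene changed by -0.36 on this relative log2 scale, and the KO libraries lay below all WT libraries for 60.1% of the 12911 genes and above them for 1.51%, while 38.4% overlapped. Tek averaged 1.03 in WT and 1.00 in KO, Flt1 -1.04 and -1.09, Flt4 -2.25 and -2.37, and Tie1 0.27 and 0.38, all with overlapping libraries. Kdr, Vegfb and Vegfc were lower in all KO libraries, with differences of -0.28, -0.63 and -0.36. Those of Kdr and Vegfc were no larger in size than, or about equal to, that of the median gene. Angpt1 was higher in all KO libraries, 0.017 on average in WT and 1.06 in KO.

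Markers of other cell types moved as well. Smooth muscle markers had 4 of 6 called lower and summed to 853 to 1007 RPKM in WT and 182 to 261 RPKM in KO. Which cells of the tissue held these markers was not tested. Most of that sum was Acta2, at 814 to 964 RPKM in WT and 164 to 245 RPKM in KO. Tagln and Lmod1 were not called and overlapped between groups. Pericyte markers had 0 of 7 called, with sums of 119 to 126 RPKM in WT and 111 to 132 RPKM in KO. Airway and lung markers had 6 of 7 called lower and summed to 522 to 718 RPKM in WT and 1.52 to 18.6 RPKM in KO. Of the remaining lists, heart muscle markers had 1 of 8 higher (Myh7) and 1 lower (Myh6), fibroblast markers 2 of 6 higher (Tcf21 and Postn), and epicardial, atrial, macrophage and erythroid markers 0 of 5, 5, 5 and 3 called. The part of any of these cells in the levels of the ligands and receptors, or in the use of Vegfa exon 6, was not tested.

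Among other genes of both pathways, 1 was called. Of 6 tested partners of the angiopoietin-Tie system 0 were called, and the largest log2 changes were -0.47 for Grb14, an adaptor (adjusted p = 0.0793), and 0.14 for Svep1, a matrix protein. Among 9 other VEGF ligands, co-receptors, adaptors and processing enzymes 1 was called higher, Shb, an adaptor of Kdr, which rose from 9.44 ± 1.22 to 13.1 ± 0.219 RPKM (SD, n = 3 each; limma adjusted p = 0.0330). Pgf, a ligand of Flt1, measured 0.825 and 1.41 RPKM in WT and KO and was not called (log2 change 0.48, adjusted p = 0.208).

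Genes known to respond to VEGF in endothelial cells had 0 of 10 higher and 1 lower, Kcne3, a potassium channel subunit found in sprouting tip cells, which fell from 0.756 to 0.154 RPKM (limma adjusted p = 0.0154). Its KO libraries, at 0.314, 0.0412 and 0.108 RPKM, were below the 0.5 RPKM of the filter. Which cells of the tissue held Kcne3 was not tested. Apln, a tip cell peptide, averaged 3.61 and 2.14 RPKM in WT and KO (log2 change -0.68, adjusted p = 0.111). Of 13 hypoxia targets, which share an upstream signal with Vegfa, 0 were called higher and 2 lower, Car9, a carbonic anhydrase (1.26 to 0.271 RPKM, adjusted p = 0.00235), and Hk2, a hexokinase (12.8 to 9.17 RPKM, adjusted p = 0.0480). The KO libraries of Car9, at 0.24, 0.37 and 0.20 RPKM, were likewise below the 0.5 RPKM of the filter. Kcne3 and Car9 thus passed the filter only through their WT libraries, and only a lower call was possible for them. Medians were 0.07, 0.16, 0.09 and -0.07 for the lists of Tie partners, VEGF partners, VEGF-responsive genes and hypoxia targets.

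**Figure D5:**
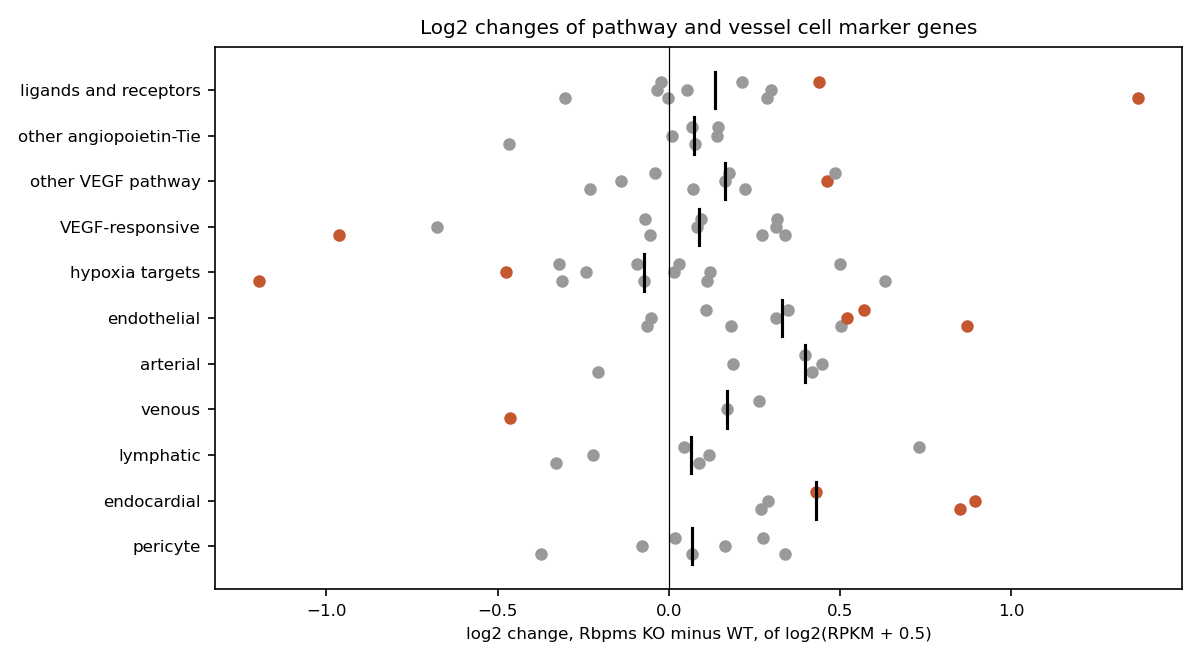
Log2 change of log2(RPKM + 0.5), Rbpms KO minus WT (x axis), for each tested gene of the ligand and receptor family, the pathway lists and the vessel cell markers; orange marks a limma adjusted p below 0.05 and the black bar the median of a list. Medians are 0.33 for endothelial and 0.43 for endocardial markers.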

How the data were processed

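Per the labels' protocols the RNA was polyadenylated and libraries were stranded. The deposited expression values of the authors are RPKM for 14004 genes, and multiplying them by the deposited lengths gives a total of 1000000 for every library, so read depth is unknown. The authors' tools, per the submitters' processing notes, include FastQC 0.11.4, featureCounts 1.6.0 and edgeR 3.30.1, and the notes name GRCm38 and mm10. The aligner is not given in the sources used here. For each gene the authors' deposited comparison holds a log2 fold change of KO over WT, a p-value, an FDR and a test score. Inclusion levels, as fractions, and junction read counts for 2 sets of 3 libraries stand in the deposited rMATS tables.

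A gene was tested if 3 or more libraries reached 0.5 RPKM. The test was limma 3.58.1 in R 4.3.3 on log2(RPKM + 0.5) with a trend, and p-values were adjusted by Benjamini-Hochberg over all 12911 genes. This scale understates changes of low genes.

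Commas between read counts were missing in 14358 of 78402 pairs of cells. Digits were divided so that the printed inclusion levels were met within 0.00051. Among several solutions (6393 pairs) the one with the most even totals was kept. That choice concerned 14 events of these genes and of Rbpms, some of them skipped exon events of Rbpms. It concerned none of the ligand and receptor events named. Events needed levels in all 6 libraries and a mean of at least 10 junction reads, and sets were compared by exact permutation in SciPy 1.17.1. Exon sequences came from GENCODE M21 (GRCm38), the build of the deposited coordinates.

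The genes named were all 10 ligands and receptors, the 5 genes most correlated with the one of largest change, and called or largest-changing genes of the pathway lists. Members and lists were chosen with earlier results of these data known. Alternatives covered pseudocount, filter, scaling, trend, a replicate block, WT replicates 1 and 2 as 1 sample, and each library left out.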

Additional observations from a re-analysis of the deposited data

How the results depend on the processing

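The count of ligands and receptors called higher, 2, was 1 without a mean-variance trend, 1 with the mean of WT replicates 1 and 2 as 1 sample, 1 with a replicate block, and 1 to 2 without single libraries; the gene lost was Tie1, with adjusted p of 0.0689, 0.178 and 0.0796 in the first 3 of these. The count called lower was 0 throughout (0 to 0 without single libraries). Over all genes, the counts higher and lower were 48 and 163 with WT replicates 1 and 2 as 1 sample, 45 to 386 and 147 to 545 without single libraries, and 192 higher with the replicate block. Signs turned where the change was near 0. Angpt2 was 0.0066 with a pseudocount of 1 and 0.023 after rescaling, and ran from -0.30 to 0.17 without single libraries. Vegfa was 0.0099 after rescaling and 0.016 with WT replicates 1 and 2 as 1 sample, and ran from -0.10 to 0.030. Vegfc ran from -0.098 to 0.020 and Kdr from -0.025 to 0.13. Over the 10 genes, 118 alternative values kept direction and side of the threshold, 13 turned sign, 8 lost a call and 1, Tek without KO replicate 3, gained one. The cause of the changes was not tested. Same-numbered libraries correlated at 0.213, -0.271 and 0.122 in their deviations from the group means, so the numbers were not taken to pair them. The count of called events of these genes was 3 as well with exon body reads added and with at least 20 reads. Read depth limits the events of Flt4 and Vegfc, and expression depth is unknown.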
